A study of Mus musculus with 6 samples.

Results

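The enzymes described here are the glycine cleavage system, the enzymes that make serine and turn it into glycine, and 1 enzyme of the mitochondrial folate pathway, 10 genes in all of the 19946 genes compared in the series. They are Gldc, Amt, Gcsh and Dld, which form the glycine cleavage system, Shmt1 and Shmt2, Phgdh, Psat1 and Psph, and Mthfd2. The group was chosen by the difference of Gldc, which had been seen to be higher in the mutants of these same data, and the other 9, called its partners below, were listed by biochemical role. The comparison of Gldc is therefore given as a description without a test, while the partners were read from the fit over all genes. Each gene has 1 feature (the set of probes summarised into 1 value) that the platform annotation gives to it alone.

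Whole lungs of mouse embryos were taken at E14.5, when the airways are branching, and measured on 6 single-colour arrays. The 3 mutant embryos carried Shh-cre, which drives Cre in cells that express Shh, in the lung the endoderm that lines the airways, with floxed alleles, cut by Cre, of Foxp1, Foxp2 and Foxp4, genes of forkhead transcription factors. Their genotype label lists Foxp1flox/flox 2 times and Foxp4flox/flox 1 time, and the second Foxp1 was read as Foxp2 after the title of the series. The 3 control embryos carried Shh-Cre. Both groups shared the Cre and a mixed C57BL/6 and 129X1 background. Because Cre acts only in the endoderm, the mesenchyme, vessels and blood in these whole lungs keep the Foxp genes, and in bulk tissue fewer cells of a type and less RNA per cell cannot be told apart. Values are on a log2 scale, so 1 unit is a doubling, and were normalized between arrays by the authors. Nothing in the labels says whether the embryos shared a litter, so p-values measure the spread between these samples.

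Glycine cleavage is a mitochondrial reaction that splits glycine into carbon dioxide and ammonia and passes its remaining carbon to tetrahydrofolate. It needs every protein of the system together: Gldc, the P-protein, takes off the carboxyl group, Gcsh, the H-protein, carries the intermediate on a lipoyl arm, Amt, the T-protein, hands the carbon to folate, and Dld, the L-protein, reoxidizes the lipoyl arm. Serine is made from a glycolytic intermediate by Phgdh, Psat1 and Psph in turn, and the hydroxymethyltransferases convert serine into glycine while charging folate with a carbon. In embryos this carbon supply serves the synthesis of purines, thymidylate and methyl donors, and inherited loss of glycine cleavage causes glycine encephalopathy and, in mice, neural tube defects.

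As checks on the samples, the 6 arrays had medians from 6.70 to 6.79, and arrays correlated at 0.994 or more within the mutants and 0.997 or more within the controls. Foxp2 differed by -0.95 and Foxp4 by -0.64 log2 units (limma adjusted p 4.75e-05 and 0.00591), while Foxp1, at -0.31, did not pass (adjusted p = 0.0661) except without mutant 3 (0.0428). Over all 19946 genes, 765 were higher and 763 lower in mutants at an adjusted p under 0.05, or 7.66% in either direction, 3.84% higher and 3.83% lower. As a check of the tissue, Nkx2-1, the homeobox gene of lung endoderm, averaged 9.25 ± 0.24 in mutants and 10.12 ± 0.04 in controls (SD, n = 3 each), and was lower in mutants (adjusted p = 0.0026). Sftpc, the surfactant gene of distal lung epithelium, averaged 5.80 ± 0.05 in mutants, below the array medians, and 11.38 ± 0.03 in controls.

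Of the 9 partners of Gldc, 0 were higher, 1 was lower and 8 did not pass the threshold, which 7.66% of all genes passed. The lower one was Psat1, the aminotransferase of serine synthesis. Amt, Gcsh and Dld, which must work beside Gldc to cleave glycine, did not pass, as most genes did not. At an unadjusted p under 0.05, which 19.8% of all genes reached, 2 partners were higher and 1 lower. The mutants did not overlap the controls for 2 of the 9 partners and for 25.9% of all genes. The median difference of the partners was -0.07 log2 units, against -0.01 over all genes, and 4 of the 9 had a positive and 5 a negative difference.

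The promoter sequences of the gene that was listed for its rise, of the partner that fell and of a glycine cleavage partner that did not pass are shown to let them be compared. They run from 250 bases before to 50 bases after the annotated start, are taken from RefSeq on GRCm38.p6, and are written 5′ to 3′ on the strand of the gene, with the letters CCAAT, or ATTGG where the match is on the opposite strand, in capitals. Gldc lies at chr19:30175392-30175691 on the minus strand, Psat1 at chr19:15925010-15925309 on the minus strand (the upstream one of its 2 listed starts) and Amt at chr9:108296655-108296954 on the plus strand.
Gldc: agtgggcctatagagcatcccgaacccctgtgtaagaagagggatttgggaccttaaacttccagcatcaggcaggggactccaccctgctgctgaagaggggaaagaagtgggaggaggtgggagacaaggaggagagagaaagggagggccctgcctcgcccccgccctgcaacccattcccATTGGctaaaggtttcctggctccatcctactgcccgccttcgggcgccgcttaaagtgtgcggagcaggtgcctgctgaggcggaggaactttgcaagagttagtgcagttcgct
Psat1: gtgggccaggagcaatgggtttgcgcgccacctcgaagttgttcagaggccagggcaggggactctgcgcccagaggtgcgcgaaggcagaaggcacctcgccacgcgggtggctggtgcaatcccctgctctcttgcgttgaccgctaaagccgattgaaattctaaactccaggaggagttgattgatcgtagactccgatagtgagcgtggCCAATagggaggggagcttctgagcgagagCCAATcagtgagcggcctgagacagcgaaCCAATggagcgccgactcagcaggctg
Amt: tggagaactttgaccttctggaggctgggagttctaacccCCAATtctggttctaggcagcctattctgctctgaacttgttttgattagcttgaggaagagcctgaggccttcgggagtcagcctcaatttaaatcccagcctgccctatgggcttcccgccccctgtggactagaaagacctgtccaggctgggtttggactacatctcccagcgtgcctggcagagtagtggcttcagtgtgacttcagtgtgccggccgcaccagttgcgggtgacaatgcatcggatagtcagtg

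The Gldc promoter holds 1 CCAAT match, whose first base is at -66 from the start and which lies on the opposite strand. The Psat1 promoter holds 3, first bases at -36, -6 and 24, and the Amt promoter 1, at -210. Of the 10 members, 9 hold CCAAT on either strand in at least 1 of their 11 listed promoters, Shmt2 being the exception. The second listed promoter of Psat1 holds 0. Of all 32851 promoters of that length in the table, counted singly and not by gene, 37.4% hold CCAAT. This motif was added after the letters had been read, so the count is a description and not a test of enrichment. The forkhead letters TGTTTAC and the Atf4 letters TGATGNAA, searched on both strands with N as any base and not overlapping CCAAT in any member, are in 3.65% and 3.97% of all promoters and in 0 of the 10 members, which says only that these letters are not in these windows. The GC share was 59% in the Gldc promoter, 60.3% in that of Psat1 and 54.7% in that of Amt, with 10, 20 and 7 CG dinucleotides.

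Gldc, the glycine decarboxylase, read 8.39, 8.75 and 8.59 in mutants 1 to 3, against 6.39, 6.45 and 6.33 in controls 1 to 3. Every mutant lay far above every control, mutant 2 being the highest and mutant 1 the lowest of the mutants. The difference was 2.19 ± 0.09 log2 units (SE, n = 3 per group), or 4.57-fold higher in mutants, and it is given as a description because this rise put the gene on the list. Only 10 of the 19946 genes, Gldc included, had a positive difference at least as large. In the controls Gldc read below the median of each array.

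Amt, the T-protein, read 8.19, 8.64 and 8.38 in mutants, against 8.63, 8.57 and 8.52 in controls. The groups overlapped, because mutant 2 lay above all controls while mutants 1 and 3 lay below them. The difference was -0.17 ± 0.11 log2 units (SE), with a 95% confidence interval from -0.41 to 0.08 (limma adjusted p = 0.466). This spread among mutants, 0.22 log2 units (SD), exceeded the difference itself.

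Gcsh, the lipoyl carrier of the system, read 7.24, 7.51 and 7.31 in mutants, against 7.47, 7.53 and 7.27 in controls. These values were interleaved, with control 3 among the mutants and mutant 2 among the controls. The difference was -0.07 ± 0.10 log2 units (SE), with an interval from -0.29 to 0.15 (adjusted p = 0.764).

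Dld, the dehydrogenase that glycine cleavage shares with the pyruvate, oxoglutarate and branched-chain ketoacid dehydrogenase complexes, read 10.04, 10.07 and 9.93 in mutants, against 9.94, 9.80 and 9.78 in controls. Mutants 1 and 2 lay above all controls and mutant 3 was level with control 1, the highest control. The difference was 0.18 ± 0.07 log2 units, with an interval from 0.02 to 0.34, and did not pass after adjustment over all genes (adjusted p = 0.185).

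**Figure D1:**
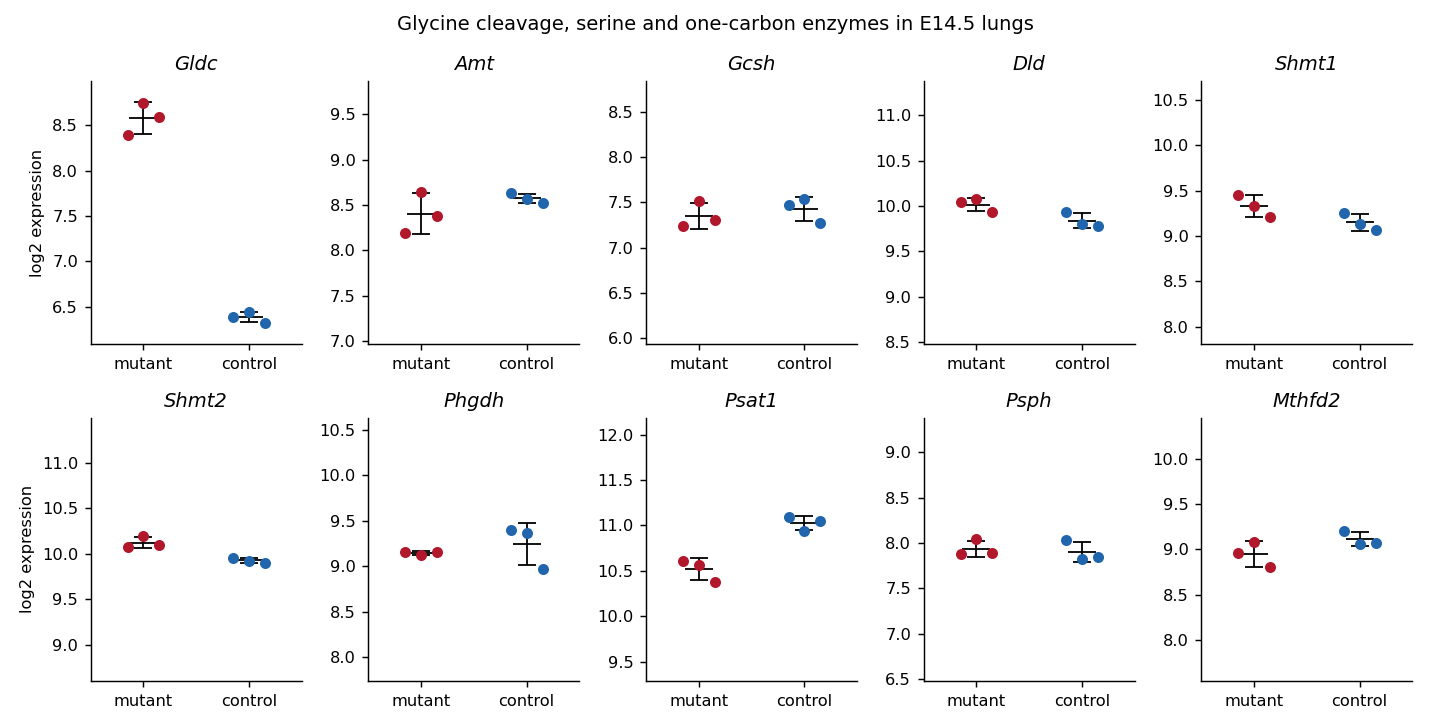
Log2 expression of the 10 enzymes in each array, mutants on the left in red and controls on the right in blue, arrays 1 to 3 from left to right, with the group mean and SD (n = 3) in black and the same height of scale in every panel. Gldc lies between 8.39 and 8.75 in mutants and between 6.33 and 6.45 in controls, Psat1 is lower in all mutants, and the other panels show small or no separation.

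Shmt2, the mitochondrial serine hydroxymethyltransferase that feeds glycine and one-carbon units into the same compartment, read 10.07, 10.19 and 10.10 in mutants, against 9.95, 9.93 and 9.90 in controls. It was the single partner whose mutants all lay above the controls, as did the mutants of 13.4% of all genes. The difference was 0.20 ± 0.06 log2 units (SE), or 1.15-fold, with an interval from 0.06 to 0.33 and an adjusted p of 0.0894. Shmt1, the cytosolic form, read 9.45, 9.33 and 9.21 in mutants, against 9.26, 9.13 and 9.06 in controls. Mutants 1 and 2 lay above all controls and mutant 3 below control 1, with a difference of 0.18 ± 0.08 (adjusted p = 0.264).

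Psat1, the phosphoserine aminotransferase, read 10.61, 10.57 and 10.38 in mutants, against 11.10, 10.94 and 11.05 in controls. All mutants lay below all controls, as for 12.6% of all genes, with mutant 3 the lowest. The difference was -0.51 ± 0.08 log2 units (SE, n = 3 per group), or 0.702 of the control level, with an interval from -0.69 to -0.33 and a limma adjusted p of 0.00645. Over all genes, 3.88% differed by at least this much in either direction. With any 1 array left out or under the other alternatives tried, the difference lay between -0.55 and -0.44 and the adjusted p between 0.00218 and 0.0386.

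The enzymes on either side of Psat1 in serine synthesis did not pass. Phgdh, the dehydrogenase of the first step, read 9.16, 9.12 and 9.16 in mutants, against 9.40, 9.36 and 8.97 in controls. The mutants were close together and lay between control 3 and the other two controls, so the control spread (SD 0.24) exceeded the difference of -0.10 ± 0.11 (adjusted p = 0.721). Psph, the phosphatase of the last step, read 7.88, 8.04 and 7.89 in mutants, against 8.03, 7.82 and 7.85 in controls. Its groups overlapped almost wholly, with a difference of 0.04 ± 0.08 (adjusted p = 0.862) whose sign turned without mutant 2 or without control 2.

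Mthfd2, the mitochondrial folate dehydrogenase and cyclohydrolase that takes over the carbon released by Shmt2 and by glycine cleavage, read 8.96, 9.08 and 8.80 in mutants, against 9.20, 9.06 and 9.07 in controls. Mutants 1 and 3 lay below all controls and mutant 2 among them. The difference was -0.16 ± 0.08 log2 units, with an interval from -0.35 to 0.03 (adjusted p = 0.339).

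How far each partner could have moved is bounded by these intervals. The highest upper bound among the 9 was 0.37 log2 units, that of Shmt1, which is 1.29-fold, and the SEs ran from 0.06 to 0.11. Set against the Gldc difference of 2.19, the part of it that lies above a partner's upper bound was between 1.82 (Shmt1) and 2.52 log2 units (Psat1). These bounds do not show that the partners were unchanged. They show that a rise of each partner in whole-lung RNA as large as that of Gldc lies outside its interval. A change within the endoderm alone, where Cre acts, was not measured apart from the other cells.

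**Figure D2:**
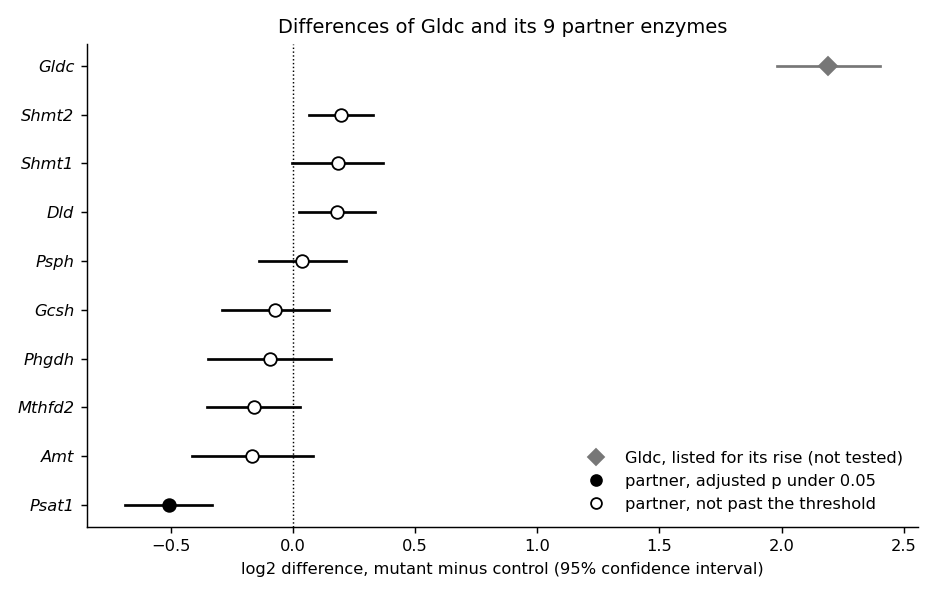
Log2 difference, mutant minus control, of the 10 enzymes with the 95% confidence interval of the moderated fit (n = 3 per group). Gldc, the grey diamond, lies at 2.19 and was not tested because its rise put it on the list, Psat1, the filled circle, lies at -0.51 and passed the threshold, and the open circles of the other 8 partners lie between -0.17 and 0.20.

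The level of the partners also differed between arrays of a group. Mutant 2 was the highest mutant for 6 of the 9 and control 1 the highest control for 8 of the 9. Relative to the control means, the median of the partners was -0.09, 0.09 and -0.08 in mutants 1 to 3, against 0.09, -0.02 and -0.05 in controls 1 to 3. Over all genes the same medians lay between -0.02 and 0.01. The differences of Gcsh and Psph between the groups were smaller than the largest of these array shifts. Control 1 also had the highest control median in each list of related genes below, so its place was not particular to the partners. Mutant 2 had the highest mutant median in 3 of those lists and not in the others. These were lipoate and Dld complexes, other glycine and serine metabolism, and purine synthesis (0.13, 0.05 and 0.10).

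The related genes were taken from 7 lists written by biochemical role, of which 97 of 108 entries were measured by a feature of their own. Of the 97, 6 were higher and 5 lower in mutants and 86 did not pass, or 11.3% past the threshold where 7.66% of all genes were. Beside the counts of each list stand 3.84% of all genes higher, 3.83% lower and 19.8% at an unadjusted p under 0.05. Dlat, the acyltransferase of the pyruvate dehydrogenase complex, and Bckdhb, a subunit of the branched-chain ketoacid dehydrogenase, were the 1 higher and the 1 lower gene among 12 genes of lipoate attachment and of the complexes that share Dld (median -0.0003). Bckdhb differed by -0.51 ± 0.10 (adjusted p = 0.0163), and its call ended without mutant 3 (0.0533) or without control 3 (0.077). Dlat differed by 0.26 ± 0.06 (adjusted p = 0.0403), and its call ended without mutant 2, mutant 3, control 1, control 2 or control 3 (adjusted p 0.0613, 0.11, 0.0852, 0.143 and 0.172), and under other settings, among them arrays centred on their medians (0.119).

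Genes of the folate cycle and of folate uptake, into which glycine cleavage delivers its carbon, gave 0 calls by limma among 15 measured, and 3 were higher and 0 lower at an unadjusted p under 0.05. The median of that list was 0.01 log2 units and its members ran from -0.27 to 0.20. Of 11 genes of purine synthesis, which uses glycine and folate-borne carbon, Ppat, the amidotransferase of its first step, was the 1 higher gene and 0 were lower (0 lower also at an unadjusted p under 0.05), with a median of 0.06. Ppat differed by 0.31 ± 0.06 (adjusted p = 0.027), and its call ended on leaving out control 1 (0.0645), control 2 (0.114) or control 3 (0.121), and under other settings, among them arrays centred on their medians (0.0668).

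The list of the methionine cycle, which uses the folate carbon to make methyl donors, also holds genes of transsulfuration and of methylthioadenosine salvage. It gave 4 called genes among 12 measured, 3 higher and 1 lower (median 0.11), where 7.66% of all genes were called. Mtr, the folate-dependent methionine synthase, read 9.32, 9.18 and 9.16 in mutants, against 8.77, 8.67 and 8.63 in controls. All mutants lay above all controls, with a difference of 0.53 ± 0.07 (adjusted p = 0.00302), and the call held with each array left out. Mat1a, the methionine adenosyltransferase best known from adult liver, went the other way, with 5.18, 5.38 and 5.59 in mutants, against 7.30, 6.97 and 6.96 in controls. Its difference of -1.70 ± 0.13 (adjusted p = 0.000201) was the largest of the 7 lists. Cth, the lyase that makes cysteine from cystathionine, differed by 0.64 ± 0.14 (adjusted p = 0.0282) and Mtap, which salvages methylthioadenosine, by 0.38 ± 0.08 (adjusted p = 0.0214). The call of Cth ended without control 1, control 2 or control 3 (0.0769, 0.1 and 0.119), and so did that of Mtap (0.077, 0.078 and 0.1).

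**Figure D3:**
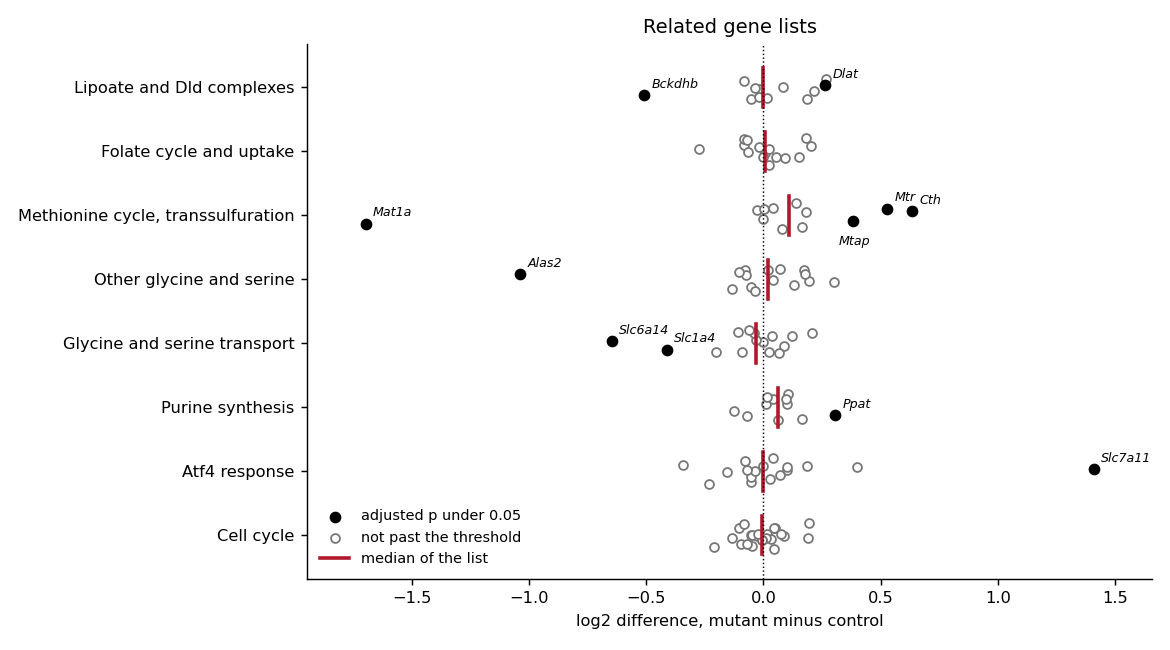
Log2 difference, mutant minus control, of each measured gene of 7 lists by biochemical role and of a cell cycle list, filled where the adjusted p is under 0.05, with the median of the list as a red bar. Medians lie between -0.03 and 0.11, and the called genes stand on both sides of 0, from Mat1a at -1.70 to Slc7a11 at 1.41.

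Among 15 other genes of glycine and serine metabolism, 0 were higher and 1 lower (3 and 1 at an unadjusted p under 0.05), with a median of 0.02. The lower one was Alas2, the enzyme by which red cell precursors join glycine and succinyl-CoA to start haem synthesis, with 8.94, 8.88 and 8.88 in mutants, against 9.62, 10.34 and 9.84 in controls. It differed by -1.04 ± 0.16 (adjusted p = 0.00674). Some red cell markers moved with it. Of 9 measured, 0 rose and 4 fell, where 3.84% and 3.83% of all genes did. At an unadjusted p under 0.05, 0 of the 9 were higher too. The largest fall was that of the anion exchanger Slc4a1 (-1.09 ± 0.16, adjusted p = 0.00507). The falls numbered 2 without control 2 or without control 3, where the calls of Kel (0.0756 and 0.0792) and Rhag (0.053 and 0.0704) ended. The globin genes of the list, Hbb-y, Hba-x and Hbb-bh1, did not pass, at -0.14, -0.15 and 0.21 (limma adjusted p 0.765, 0.841 and 0.849), and their groups overlapped. No other globin gene was on the list. The list median relative to controls was -0.20, -0.35 and -0.49 in mutants 1 to 3, against -0.13, 0.30 and -0.15 in controls 1 to 3. The part of the red cell markers in the Alas2 difference was not tested.

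Of 15 transporters that carry glycine or serine, 0 were higher and 2 lower, where 3.84% and 3.83% of all genes were. At an unadjusted p under 0.05, reached by 19.8% of all genes, 1 was higher and 3 lower. The list median was -0.03. Slc1a4, a neutral amino acid exchanger that carries serine, read 8.46, 8.48 and 8.50 in mutants, against 8.92, 8.91 and 8.84 in controls. The replicates were tight on both sides, and the difference was -0.41 ± 0.05 (adjusted p = 0.00318). Slc6a14, an epithelial transporter of neutral and cationic amino acids, was dim, at 5.12 ± 0.12 in mutants and 5.76 ± 0.15 in controls (SD, n = 3 each; difference -0.65 ± 0.09 SE, adjusted p = 0.0051), and all its mutants lay below the controls.

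Serine synthesis and Mthfd2 are known targets of the stress factor Atf4, so the response list of that factor was read beside them. Of its 17 measured genes, 1 was higher and 0 lower (2 and 2 at an unadjusted p under 0.05), with a median of 0.00003. The higher one was Slc7a11, the cystine and glutamate exchanger, which read 6.26, 6.57 and 6.43 in mutants, against 5.18, 5.16 and 4.69 in controls. All mutants lay above all controls by 1.41 ± 0.14 log2 units (adjusted p = 0.000783). Cell cycle genes, which mark cells that draw on one-carbon units, gave 0 calls by limma among 23 measured, 2 being higher and 2 lower at an unadjusted p under 0.05 (median -0.01).

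Cell type markers were read array by array beside Gldc. For each marker list, the shares over all genes were 3.84% higher and 3.83% lower, and 19.8% at an unadjusted p under 0.05. Lung epithelial markers were lower, with 0 of 12 higher and 8 lower (0 and 10 at an unadjusted p under 0.05), or 4, 4 and 5 lower without control 1, control 2 and control 3, among them Sftpc, Krt8, Nkx2-1 and Sox9 (-5.58, -1.03, -0.88 and -0.84), and the list median relative to controls was -0.59, -0.41 and -0.29 in mutants, against 0.01, 0.0017 and -0.02 in controls. The mean level of the list ran from 8.97 to 9.21 in mutants, against 10.01 to 10.03 in controls. Gldc was thus higher and Psat1 lower in lungs where 8 of 12 epithelial and 4 of 9 red cell markers were lower. The globin genes of the red cell list, Hbb-y, Hba-x and Hbb-bh1, were not among those that fell, and no other globin gene was on it. The part of the epithelial and red cell markers in either difference was not tested. The liver, where Gldc is strongly expressed, was tested by 13 markers, of which Fgg was higher (0.71 ± 0.11, adjusted p = 0.00821) and Afp lower (-0.28 ± 0.06, adjusted p = 0.0303), a call that ended on leaving out mutant 3 (0.0757), control 1 (0.0778), control 2 (0.0848) or control 3 (0.127), among the settings tried. Alb, the defining marker of hepatocytes, was named after its values were seen and read 5.24, 5.15 and 5.30 in mutants, against 5.38, 5.72 and 5.72 in controls, a difference of -0.38 ± 0.10 that did not pass (adjusted p = 0.0617). It passed without control 1 (0.0149), with quantile normalization applied again (0.0287), with arrays centred on their medians (0.0311) and with trended robust moderation (0.0444). In every array Alb read below the array median. Apoa1, also named after its values were seen, went the other way, by 0.35 ± 0.10 (limma adjusted p = 0.0883). All its mutants lay above the controls. At an unadjusted p under 0.05, 2 liver markers were higher and 2 lower, and the list median was -0.03. The mean level of the liver list ran from 5.85 to 5.96 in mutants, against 5.88 to 5.94 in controls.

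Heart muscle markers set mutant 1 apart, with list medians of 1.10, -0.21 and -0.20 in mutants, against 0.01, -0.02 and -0.004 in controls, and 0 of 16 were called by limma, 0 also at an unadjusted p under 0.05. Without mutant 1, 4 of the 16 were lower and 0 higher, where 721 of all 19946 genes were lower and 763 higher. Gldc was lowest among the mutants in that array, and without mutant 1 its difference was 2.28 and that of Psat1 -0.55 (adjusted p = 0.00781). Neural markers gave medians of 0.13, -0.11 and 0.10 in mutants, against 0.01, -0.05 and 0.03 in controls, with Fabp7 the 1 called member of 11 (0.56 ± 0.12, adjusted p = 0.0269), a call that ended without mutant 3, control 1 or control 2 (0.0855, 0.109 and 0.0899). Of 12 oesophageal and stomach markers, 1 rose and 1 fell (median -0.08), and of 12 mesenchymal markers, 2 rose and 1 fell (median 0.03). The call of Trp63, the riser of the first list, ended without mutant 1, mutant 2, mutant 3, control 1 or control 3 (adjusted p 0.0703, 0.0718, 0.0705, 0.117 and 0.124), while Pgc stayed lower. All 3 mesenchymal calls, Lum and Pdgfrb higher and Foxf1 lower, ended on leaving out any 1 control, with adjusted p from 0.0562 to 0.133.

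**Figure D4:**
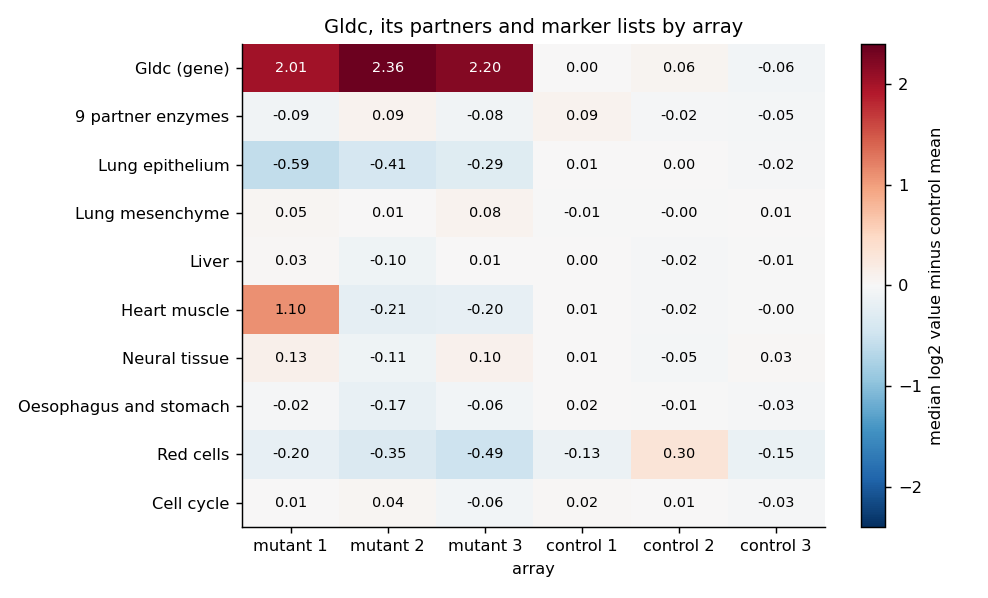
Log2 value of each gene less its own mean over the 3 controls, as the median over each gene list in each array. Gldc is a single gene in the first line, and mutants stand to the left of controls. Gldc is between 2.01 and 2.36 in the mutants, and the median of its 9 partners stays within 0.09 of 0. Lung epithelial markers are at -0.59, -0.41 and -0.29 in the mutants and the heart muscle list is at 1.10 in mutant 1.

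The genes whose profile over the 6 arrays was nearest to that of Gldc, by Euclidean distance after the mean of the 3 controls was taken off each gene, were Emb, Asb4, Cpn1, Cldn8 and Frzb, at distances of 0.37, 0.38, 0.43, 0.49 and 0.57 log2 units. Emb, which encodes the membrane glycoprotein embigin, read 9.83, 9.99 and 9.66 in mutants, against 7.51, 7.48 and 7.67 in controls. Asb4, which encodes an ankyrin repeat and SOCS box protein, read 10.70, 10.58 and 10.74 in mutants, against 8.60, 8.67 and 8.44 in controls. Cpn1, the catalytic subunit of carboxypeptidase N, read 10.04, 10.63 and 10.56 in mutants, against 8.17, 7.94 and 8.05 in controls, and was, like Gldc, lowest among the mutants in mutant 1. The measure rewards a difference of the same size, so these are genes with rises near 2.19. No gene of the lists by biochemical role could be among them, since the largest rise there was that of Slc7a11, at 1.41.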

How the data were processed

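The authors deposited log2 expression values of 6 arrays made with RMA (background subtraction, normalization between arrays and summary of probes); the submitters' processing notes name oligo, RMA and limma, without versions, and the settings used are not given in these sources. The values carry no detection calls, so the 3 arrays per group limit the precision. Of 35556 features, 21797 have a single gene symbol in the platform annotation, 21698 of them matched by Entrez identifier to RefSeq genes of GRCm38.p6, which was used for names, promoters and gene order. A gene was represented by its feature of highest mean over 6 arrays, leaving 19946 genes.

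Groups were compared with limma 3.58.1 in R 4.3.3 (lmFit, eBayes, two-sided, genotype only, 7.96 moderated degrees of freedom), with Benjamini-Hochberg adjustment over all genes, a threshold of 0.05 and 95% confidence intervals, and the fit was tested on simulated data. The members, lists and tests were chosen with earlier results of these data known. The lists hold 232 genes, of which 215 were measured. Genes named are all 10 members, up to 4 called genes per list by size of difference, and the 5 nearest profiles to Gldc. The Foxp genes and Xist were named as checks. The globin genes of the red cell list and, among the neighbours, Uhrf2, Tle4 and Gna14 were named with their values known. Alb and Apoa1 are marked as chosen after their values were seen. The alternatives were a second quantile normalization, median centring, leaving out the dimmest genes, testing all single-symbol features, averaging features and trended robust moderation. Further ones were array weights (statmod 1.5.0), embryo sex as a covariate, the replicate number as a block, a threshold of 0.1 and each array left out in turn. Embryo sex was read from the values of Xist and of Y chromosome genes. By these, mutant 3 and control 3 were male and the other embryos female, so leaving out either array leaves its group without a male.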

Additional observations from a re-analysis of the deposited data

How the results depend on the processing

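Under the 15 alternatives that refit the data, the Gldc difference lay between 2.11 and 2.28. Of 135 refitted values of the 9 partners, 133 kept their direction and their side of the threshold, and 2 turned sign, those of Psph without mutant 2 (-0.015) and without control 2 (-0.0023), with its values over the arrays left out running from -0.015 to 0.10. The count of partners past the threshold was 1 with each array left out in turn (1 to 1) and in every other refit, and 2 at an adjusted p of 0.1, where Shmt2 joined Psat1. With each array left out, the count over all genes ran from 774 to 1745, and without control 1, control 2 and control 3 it was 876, 793 and 774. The count in the 7 lists ran from 6 to 15 with each array left out, being 7, 7 and 6 without control 1, control 2 and control 3, and was 17 at an adjusted p of 0.1. For 40 other genes, 522 of 592 values kept their side of the threshold, 64 lost a call and 6 gained one. The replicate numbers are not shown to pair the embryos, since deviations of same-numbered arrays correlated at -0.07, 0.05 and 0.15; mutant 2 correlated best with control 1. With the replicate number as a replicate block, 1137 genes, 1 partner and 10 list genes passed, against 1528, 1 and 11 without it, and the calls of Dlat (0.111), Ppat (0.0644), Afp (0.0738), Foxf1 (0.0573), Lum (0.0835), Trp63 (0.0513) and Gna14 (0.0987) ended. With 3 arrays per group and no detection calls, small differences and those of dim features stay uncertain.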

Other observations

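Neighbours of Gldc on chromosome 19, taken by gene order in RefSeq and not by value, are given as a description. They are not set against the size of the Gldc rise, which put Gldc on the list. Uhrf2, the neighbour on one side, which encodes a ubiquitin ligase that reads chromatin marks, read 10.14, 10.15 and 9.90 in mutants, against 9.76, 9.83 and 9.76 in controls. All its mutants lay above the controls by 0.27 ± 0.08 log2 units (limma adjusted p = 0.0835), and without mutant 3 it passed (adjusted p = 0.0208). The other 5 of the 3 nearest measured protein-coding genes on each side differed by -0.25 to 0.09, with adjusted p from 0.26 to 0.998. Of the 6 genes taken in the same way beside Psat1, on the same chromosome, 1 was higher, 1 lower and 4 not called. Over all genes, 7.66% were called. Tle4, a Groucho family corepressor gene, was higher (0.62 ± 0.09, adjusted p = 0.00498). Gna14, which encodes a G protein alpha subunit, was lower like Psat1 (-0.76 ± 0.19, adjusted p = 0.0481), and its call ended without mutant 1, mutant 3, control 1 or control 3 (adjusted p 0.107, 0.133, 0.144 and 0.158). The other 4 differed by -0.24 to 0.06, with adjusted p from 0.15 to 0.865.

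A feature annotated to both Phgdh and Gm6756, and so left out of the comparison, read 9.85, 9.80 and 9.74 in mutants, against 10.03, 9.92 and 9.75 in controls. Its difference of -0.10 was the same to 2 decimals as that of the feature annotated to Phgdh alone.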
